A study of Homo sapiens with 20 samples.

Results

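The guanylate-binding proteins GBP1, GBP2, GBP3, GBP4 and GBP5 were examined by RNA-seq in 4 human lung cancer cell lines. They were chosen by name, as the count rows whose Ensembl identifier maps to these 5 symbols, out of 58233 gene identifiers. HCC366 (adenosquamous carcinoma), NCI-H1650 (adenocarcinoma) and NCI-H196 (small cell lung cancer) are the lines whose survival the study found to need ADAR1, and A549 (adenocarcinoma) tolerates its loss. Every culture, controls included, carried Cas9 and a single guide RNA (sgRNA) delivered by lentivirus, as a transduced pool and not a clone. The sgRNA targeted either the control sequence GFP or the RNA-editing gene ADAR (ADAR KO). HCC366, NCI-H1650 and NCI-H196 were left untreated. A549 cells with either target received 10 ng/mL IFN-β, a type I interferon, or its vehicle for 24 h. The design gave 10 conditions and 20 libraries. Within a condition the 2 libraries come from different sgRNAs against the same target, and errors and p-values therefore reflect how far 2 sgRNAs differ; repeat experiments are not part of them.

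Guanylate-binding proteins are large GTPases of the dynamin superfamily, made in quantity by cells exposed to interferon. They assemble on the membranes of intracellular bacteria, parasites and the vacuoles that hold them, and there they recruit other defence proteins, including inflammatory caspases. GBP1, GBP2 and GBP5 carry a lipid-attachment motif at their C-terminus that anchors them to membranes. GBP3 is the closest relative of GBP1. Interferon-γ is their classical inducer, acting in part through IRF1, and type I interferons induce them through a complex that includes STAT2 and IRF9 and binds a DNA element called ISRE.

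The 5 genes lie in a cluster on the minus strand of chromosome 1, where GBP7 comes between GBP2 and GBP4 in the order. In GRCh37, the build of the deposited counts, GBP3 (ENSG00000117226) runs from 89472362 to 89488577 and GBP1 (ENSG00000117228) from 89517565 to 89531043. GBP2 (ENSG00000162645) runs from 89571815 to 89616139, GBP4 (ENSG00000162654) from 89646827 to 89664625 and GBP5 (ENSG00000154451) from 89721872 to 89738543. Together they span 266.2 kb. Each canonical transcript has 11 exons, except that of GBP5 with 12. The neighbouring family genes GBP7 and GBP6 had few reads: GBP7 had at most 2.37 CPM and GBP6 at most 0.281 CPM in any library (CPM, reads relative to library size after scaling by the TMM method). GBP7 is short, however. Per kb of merged exons it averaged 0.268 CPM in IFN-β-treated A549 GFP cells, beside 0.269 for GBP5, and had 0 reads with vehicle. The annotated GBP2 and GBP7 genes overlap on the same strand, where reads can be ambiguous between them. Of all 50-base windows of the canonical transcripts, 4.41% in GBP1, 3.38% in GBP3, 0.990% in GBP2 and 0.312% in GBP4 also occur in another family transcript, and none in GBP5. Reads from such windows may be lost or misassigned. No 100-base window of a member's canonical transcript is shared in this way. In GBP7 24.7% of 50-base and 22.5% of 100-base windows are shared, nearly all with GBP2 transcripts other than its canonical one.

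Promoters were read from RefSeq (GRCh38.p14, 250 bases before to 50 after each start), which held GBP1, GBP3 and GBP4 among the members. They are shown because each holds a match to the ISRE core (GAAA, any 2 bases, GAAA), searched on both strands, found here in its reverse form and set in capitals. The windows are chr1:89065306-89065365 for GBP1, chr1:89022837-89022894 for GBP3 and chr1:89198917-89198976 for GBP4, all on the minus strand and read 5′ to 3′.
GBP1: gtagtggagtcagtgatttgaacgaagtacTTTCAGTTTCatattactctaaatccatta
GBP3: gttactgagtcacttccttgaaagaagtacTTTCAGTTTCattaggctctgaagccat
GBP4: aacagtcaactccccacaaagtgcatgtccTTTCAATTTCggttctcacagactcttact
The core began at base -127 of the GBP1 promoter, base 3 of GBP3 and base -4 of GBP4, counted from the transcription start. Of 35116 promoters of the same length, 3.57% hold it. The promoters of GBP6 and GBP7 had no match. A strict GAS element (TTCNNNGAA, the interferon-γ-activated site) was matched in GBP3 alone, against 7.66% of all promoters. Its relaxed form (TTNCNNNAA, 33.9% of promoters) was matched in GBP1 and GBP3 and not in GBP4. The strict and relaxed matches of GBP3 overlap at base -15. These are matches of letters and not measured binding sites.

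Reads on genes numbered from 62679 to 19520189 per library. The smallest was NCI-H196 GFP sg2, in which 1 read is worth 14.5 CPM and the 5 members had only 4 to 13 reads each. In HCC366 ADAR sg2, 85.6% of alignments were not unique, against at most 59.1% in any other library. ADAR itself was below both of its controls in every ADAR KO library. It passed the test in NCI-H1650 (log2 fold change -1.29), NCI-H196 (-0.41), A549 with vehicle (-1.08) and A549 with IFN-β (-0.60) but not in HCC366 (-0.84, adjusted p = 0.208, edgeR). Defining lineage genes did not always match the tumor type. NKX2-1 had at most 1 read in a line's controls, DSG3 had 0 reads in HCC366, and NEUROD1 and INSM1 had 0 reads in NCI-H196, where VIM averaged 2213 CPM. Immune-cell markers summed to at most 8.15 CPM in any untreated GFP library.

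Each GBP was higher in the 3 ADAR1-dependent lines, without any treatment, than in A549, where GBP4 and GBP5 had no reads. For this comparison the 8 untreated or vehicle-treated GFP libraries were scaled together. GBP1 was at 4.53 and 3.62 CPM in the A549 vehicle libraries. It was at 46.8 and 94.2 CPM in HCC366, 125.8 and 126.0 CPM in NCI-H1650, and 130.4 and 152.5 CPM in NCI-H196. Every library of a dependent line lay above both of A549, and this held for all 5 members. GBP2, GBP4 and GBP5 passed the filter on low counts only through the dependent lines, so for them it is no test. Of 15964 genes tested, 38.5% had both HCC366 libraries above both A549 libraries, 40.9% both NCI-H1650 and 25.1% both NCI-H196 libraries. In NCI-H196 GFP sg2 1 read was worth 11.7 CPM in this scaling, and a gene with 0 reads there could not count. The NCI-H196 share is therefore not comparable with those of the other lines. GBP3 gave the same picture, with 6.04 and 4.83 CPM in A549 against 58.7 and 76.8 CPM in HCC366, 58.4 and 58.6 CPM in NCI-H1650, and 77.1 and 117.3 CPM in NCI-H196. GBP2 was at 0.671 and 0.517 CPM in A549, 3.17 and 13.8 CPM in HCC366, 23.0 and 17.5 CPM in NCI-H1650 and 45.7 and 82.1 CPM in NCI-H196. The HCC366 libraries differed widely for GBP2, and the lower one rests on 4 reads. GBP4 and GBP5 had 0 reads in both A549 vehicle libraries. GBP4 was at 15.9 and 32.4 CPM in HCC366, 123.7 and 113.0 CPM in NCI-H1650, and 18.6 and 58.7 CPM in NCI-H196. GBP5 was at 3.97 and 6.77 CPM in HCC366, 8.58 and 7.83 CPM in NCI-H1650, and 35.2 and 46.9 CPM in NCI-H196.

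GBP1 and GBP3 were higher in HCC366, NCI-H1650 and NCI-H196 than in A549 at an adjusted p under 0.05 (edgeR's quasi-likelihood test, Benjamini-Hochberg adjustment over all genes). So were GBP2, GBP4 and GBP5, but only the dependent lines took them past the filter on low counts, so their calls are no test. So many genes differ between lines that such calls have a high background: 64.9% of the genes tested were called between HCC366 and A549, 68.3% between NCI-H1650 and A549, and 70.5% between NCI-H196 and A549. The sizes of the differences are therefore given too. The median log2 difference of all genes was 0.00, -0.01 and 0.02, but the scaling holds it near 0, so it is no background for size. The share of genes with differences as large was not counted. GBP1 was higher by 4.27 (SE 0.21), 4.99 (SE 0.19) and 5.05 (SE 0.20), GBP3 by 3.73 (SE 0.20), 3.46 (SE 0.19) and 3.90 (SE 0.20), and GBP2 by 4.15 (SE 0.46), 5.09 (SE 0.36) and 6.31 (SE 0.34), each in the order HCC366, NCI-H1650, NCI-H196. Without NCI-H196 GFP sg2 the values for that line were 5.04 for GBP1, 3.86 for GBP3 and 6.27 for GBP2, and without HCC366 GFP sg2 GBP2 in HCC366 was 2.42. Since GBP4 and GBP5 had no read in A549, their folds are bounds against 3 reads over the 2 A549 libraries. GBP4 was at least 141.1-fold higher in HCC366, 692.5-fold in NCI-H1650 and 225.9-fold in NCI-H196. GBP5 was at least 31.4-fold, 48.0-fold and 240.4-fold higher. In pools of cells, more cells with a transcript and more transcript per cell cannot be told apart.

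Among the dependent lines the family did not move as a block. GBP4 was the member that set NCI-H1650 apart, 2.62 log2 units (SE 0.19) above NCI-H196 and 2.13 (SE 0.18) above HCC366, where the contrast of HCC366 against NCI-H1650 is -2.13. GBP5 and GBP2 set NCI-H196 apart: GBP5 was lower in HCC366 by -2.59 (SE 0.33) and in NCI-H1650 by -2.12 (SE 0.27), and GBP2 by -2.16 (SE 0.27) and -1.22 (SE 0.22). GBP1 was lower in HCC366 than in NCI-H1650 (-0.71, SE 0.15) and NCI-H196 (-0.78, SE 0.16) but did not differ past the threshold between the last 2 lines (-0.07, 95% interval -0.36 to 0.23). GBP3 was the most even, with a called difference only between NCI-H1650 and NCI-H196 (-0.43, adjusted p = 0.0147, edgeR). In all, 3 members were called between HCC366 and NCI-H1650 (background 56.7%), 3 between HCC366 and NCI-H196 (57.3%) and 4 between NCI-H1650 and NCI-H196 (61.7%). The call of GBP2 between HCC366 and NCI-H1650 was lost without HCC366 GFP sg1 (-0.55) or NCI-H1650 GFP sg1 (-0.74), and GBP3 was gained without the former (0.39). Without HCC366 GFP sg2, GBP2 in HCC366 was lower than in NCI-H1650 by -2.69 and than in NCI-H196 by -3.91. GBP3 between NCI-H1650 and NCI-H196 was lost without either NCI-H1650 GFP library (-0.43 and -0.44). GBP4 between HCC366 and NCI-H196 was gained without HCC366 GFP sg1 (0.75) or NCI-H196 GFP sg2 (0.54). The contrasts with NCI-H196 rest on its sg1 library. Without it, no member was called between NCI-H1650 and NCI-H196, only GBP2 remained called between HCC366 and NCI-H196, and the log2 difference of GBP4 between those lines turned from 0.49 to -1.12.

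Within a library, levels were set side by side per kb of merged exons. In the NCI-H1650 GFP libraries GBP1 averaged 21.7 CPM per kb, GBP4 20.3, GBP3 14.4, GBP2 2.95 and GBP5 0.788. In NCI-H196 GFP the same means were 26.8 for GBP1, 26.5 for GBP3, 10.4 for GBP2, 7.52 for GBP4 and 4.36 for GBP5. In HCC366 GFP, GBP3 averaged 15.1 and GBP1 11.05 CPM per kb, GBP4 3.76, GBP2 1.13 and GBP5 0.468. GBP5 thus had the lowest mean per kb in the controls of each dependent line. In NCI-H196 that order rests on the 5 GBP4 reads of GFP sg2: in GFP sg1 alone GBP4 was lowest, at 3.21 CPM per kb, with GBP5 at 3.41, GBP2 at 6.71, GBP3 at 19.1 and GBP1 at 22.7. The order of GBP1 and GBP3 in HCC366 depended on the length used: per kb of the canonical transcript, GBP1 averaged 23.4 and GBP3 21.3 CPM per kb.

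**Figure D1:**
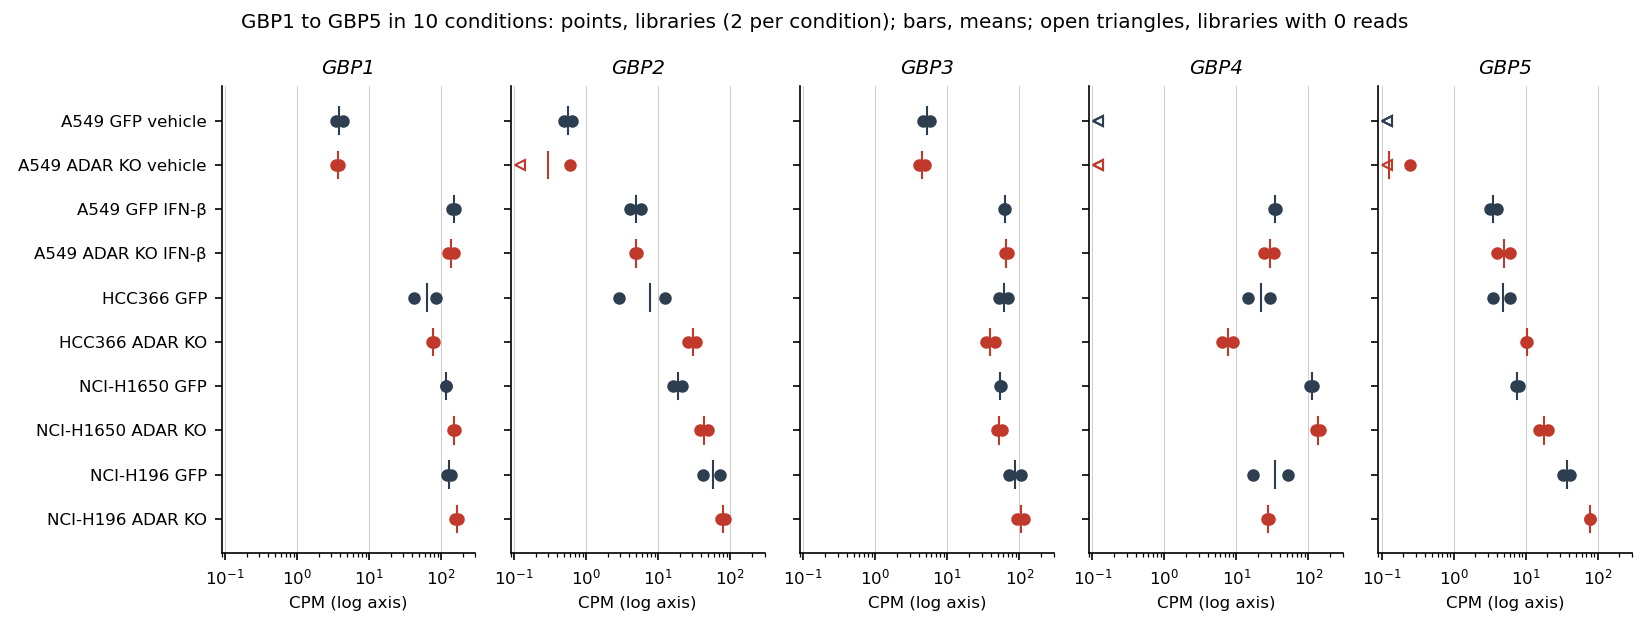
CPM of GBP1 to GBP5 (log axis, the 20 libraries scaled together) in the 10 conditions, with a point per library, a bar at each mean and open triangles at the left edge for libraries with 0 reads. The vehicle-treated A549 rows lie far to the left of all others, IFN-β brings GBP1, GBP3 and GBP4 of A549 into the range of the other lines, and GBP2 and GBP5 stay below most of them.

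ADAR KO raised GBP2 and GBP5 across the dependent lines. In the fit of the 12 libraries with the line as a covariate, GBP2 rose by 1.19 log2 units (SE 0.21, adjusted p = 0.00319, edgeR) and GBP5 by 1.15 (SE 0.17, adjusted p = 0.000479, edgeR), a fold of 2.28 and 2.22. GBP1 changed by 0.32 (SE 0.15, adjusted p = 0.202, edgeR), GBP3 by -0.12 (SE 0.17) and GBP4 by -0.09 (SE 0.27), none past the threshold. These are 2 of 5 members called, against 5.30% of 16538 genes tested. Both calls held in each fit that left out a library of these lines and in each other alternative tried. GBP2 and GBP5 are membrane-anchored members, as is GBP1, which was not called. GBP5 is known as a promoter of NLRP3 inflammasome assembly.

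In NCI-H1650, GBP2 was at 24.1 and 18.5 CPM in GFP and 43.1 and 54.0 CPM in ADAR KO libraries. GBP5 was at 8.97 and 8.29 CPM in GFP and 17.3 and 22.5 CPM in ADAR KO. GBP1 was at 131.5 and 133.4 CPM in GFP and 175.8 and 163.4 CPM in ADAR KO. All 3 genes had both KO libraries above both controls, and so had GBP4, at 129.3 and 119.7 against 142.3 and 163.0 CPM. Of 14530 genes tested, 26.2% had both KO libraries above both controls. GBP3 overlapped, at 61.0 and 62.1 CPM in GFP and 54.4 and 63.6 CPM in ADAR KO. The test called GBP2 (log2 fold change 1.18, SE 0.16, adjusted p = 2.04e-07, edgeR), GBP5 (1.19, SE 0.22, adjusted p = 8.42e-05, edgeR) and GBP1 (0.36, SE 0.11, adjusted p = 0.0216, edgeR), 3 of 5 against 8.60% of all genes tested. GBP4 (0.29, SE 0.11, adjusted p = 0.0834, edgeR) and GBP3 (-0.07, SE 0.13) were not called. The call of GBP1 was lost without GFP sg1, GFP sg2 or ADAR sg1 (0.35, 0.34 and 0.30), with DESeq2 (0.35, adjusted p = 0.148, DESeq2) and in the fit of all 20 libraries (0.37, adjusted p = 0.699, edgeR). Those of GBP2 and GBP5 were not lost without any of the 4 libraries.

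In NCI-H196, all 5 members were called higher after ADAR KO, against 17.8% of 14094 genes tested. GBP5 was at 37.4 and 58.2 CPM in GFP and 97.7 and 89.6 CPM in ADAR KO (log2 fold change 1.28, SE 0.14, adjusted p = 1.49e-17, edgeR). GBP1 was at 138.4 and 189.0 against 195.3 and 196.7 CPM, and these 2 members had both KO libraries above both controls, as did 25.6% of the genes tested. For the other members the shallow control library, GFP sg2, lay as high as the KO libraries or higher. GBP2 was at 48.4 and 101.8 CPM in GFP and 92.6 and 96.5 CPM in ADAR KO, and the 101.8 CPM comes from 7 reads with a 95% Poisson interval of 40.9 to 209.7 CPM, which covers counting error only. GBP3 was at 81.8 and 145.4 against 116.8 and 130.9 CPM, and GBP4 at 19.7 and 72.7 against 33.2 and 32.3 CPM. The fitted log2 fold changes were 0.96 (SE 0.13) for GBP2, 0.68 (SE 0.18) for GBP4, 0.62 (SE 0.11) for GBP3 and 0.49 (SE 0.10) for GBP1. Without the shallow GFP sg2 all 5 were still called, at 1.28 for GBP5, 0.97 for GBP2, 0.71 for GBP4, 0.64 for GBP3 and 0.50 for GBP1. The calls rest on GFP sg1. Without it no member was called and the values were 0.66 for GBP5, 0.06 for GBP1, -0.08 for GBP2, -0.18 for GBP3 and -1.15 for GBP4. Without ADAR sg2 none was called either (GBP5 1.33, adjusted p = 0.0527, edgeR), and without ADAR sg1 only GBP5 and GBP4 were. DESeq2 called none of them (GBP5 1.17), and among all genes it called 10 where edgeR called 2513.

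In HCC366, GBP2 and GBP5 were again higher in both KO libraries than in both controls, and GBP3 and GBP4 were lower in both. GBP2 was at 3.04 and 13.2 CPM in GFP and 27.5 and 38.1 CPM in ADAR KO. GBP5 was at 3.801 and 6.47 against 11.2 and 11.4 CPM. GBP4 was at 15.2 and 30.9 CPM in GFP and 9.44 and 6.98 CPM in ADAR KO, and GBP3 at 56.3 and 73.4 against 48.1 and 38.1 CPM. Of 11135 genes tested, 25.1% had both KO libraries above and 27.3% both below the controls. GBP1 overlapped, at 44.9 and 90.0 against 79.8 and 90.1 CPM. None of the 5 passed the test, against 1.25% of all genes: GBP2 had a log2 fold change of 1.84 (SE 0.56, adjusted p = 0.155, edgeR), GBP5 1.03 (SE 0.47), GBP4 -1.55 (SE 0.50, adjusted p = 0.171, edgeR), GBP3 -0.60 (SE 0.36) and GBP1 0.31 (SE 0.40). The unadjusted p from the same test was under 0.05 for GBP2 and GBP4. Leaving out a KO library changed calls: GBP2 and GBP4 were called without ADAR sg2 (1.46 and -1.40), the library with mostly non-unique alignments, and GBP2, GBP3 and GBP4 without ADAR sg1 (1.91, -0.80 and -1.86). Without GFP sg2 the value of GBP2 was 3.42, of GBP5 1.57 and of GBP4 -0.87, and without GFP sg1 1.31, 0.80 and -1.92, none called. When the spread was shared over all 20 libraries, GBP2 (1.69), GBP4 (-1.69) and GBP3 (-0.67) were called. DESeq2 called none (GBP2 1.94, adjusted p = 0.0836, DESeq2).

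The opposite movement of GBP4 was tested between lines, as a difference of ADAR KO effects in the fit of all 20 libraries. The effect on GBP4 was lower in HCC366 than in NCI-H1650 by -1.998 log2 units (SE 0.44, adjusted p = 0.0132, edgeR) and lower than in NCI-H196 by -2.31 (SE 0.49, adjusted p = 0.00854, edgeR). GBP3 differed between HCC366 and NCI-H196 (-1.20, SE 0.31, adjusted p = 0.0314, edgeR). The first contrast called 1 of 5 members against 2.21% of 19523 genes, and the second 2 of 5 against 2.43%. They share the HCC366 libraries. None of the 3 calls held in every fit that left out a library. The GBP4 difference from NCI-H1650 was lost without HCC366 GFP sg2 (-1.25), HCC366 ADAR sg2 (-1.77), NCI-H1650 GFP sg2 (-1.92) or NCI-H1650 ADAR sg2 (-1.89), and GBP3 was gained there without HCC366 ADAR sg1 (-0.84). The GBP4 difference from NCI-H196 was lost without HCC366 GFP sg2 (-1.56), NCI-H196 GFP sg1 (-0.80) or NCI-H196 ADAR sg2 (-2.23). That of GBP3 was lost without the same 3 libraries (-0.95, -0.71 and -1.002), without HCC366 ADAR sg2 (-1.05) or without either NCI-H1650 GFP library (both -1.19). GBP2 and GBP5 showed no called difference between any 2 dependent lines, with 95% intervals from -0.43 to 1.42 and -1.29 to 0.77 for HCC366 against NCI-H1650. Between NCI-H1650 and NCI-H196 no member was called, and 0.00512% of genes were.

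**Figure D2:**
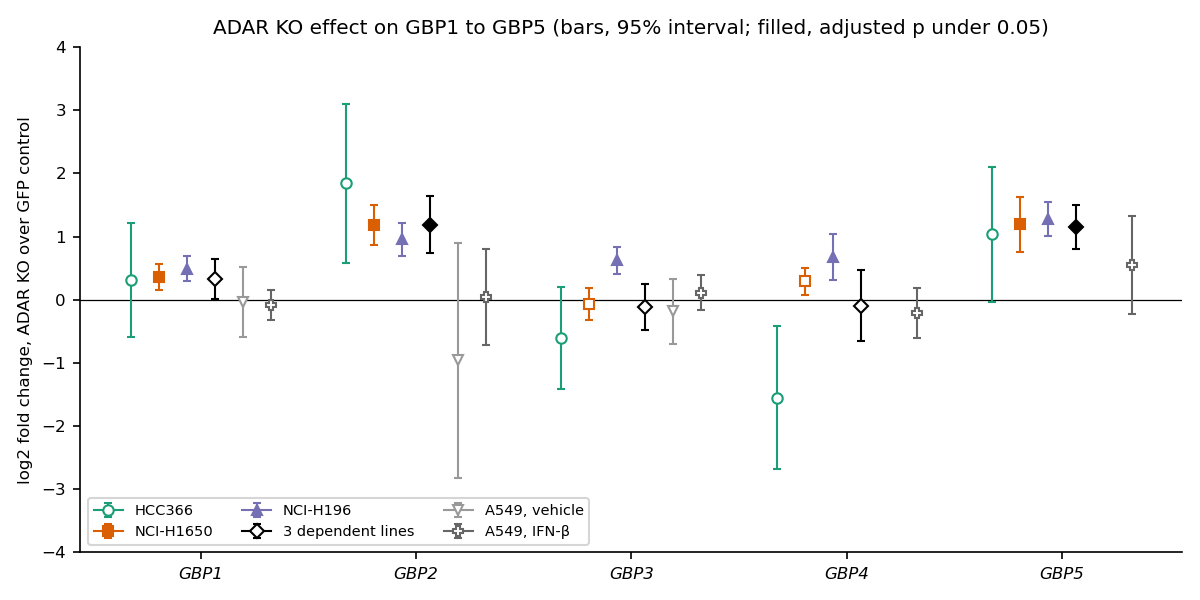
Log2 fold change of ADAR KO over GFP control for each member, with 95% intervals, in each dependent line, in the 3 lines together and in A549 with vehicle or IFN-β. Filled symbols passed the test. GBP2 and GBP5 lie above 0 in all 3 dependent lines, the effects on GBP4 run from -1.55 in HCC366 to 0.68 in NCI-H196, and in A549 all symbols are open. GBP4 and GBP5 have no symbol in A549 with vehicle, where both groups had at most 2 reads.

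In A549, no effect of ADAR KO on a member passed the test. With vehicle GBP1 was at 3.55 and 2.78 CPM in GFP and 3.16 and 2.84 CPM in ADAR KO, and GBP3 at 4.74 and 3.71 against 4.01 and 3.25 CPM. GBP2 had 4 and 6 reads in GFP and 4 and 0 reads in ADAR KO. GBP4 had no read in any of the 4 libraries, which allows up to 0.0736 CPM, and GBP5 had 2 reads in ADAR sg2 and none elsewhere. The log2 fold changes were -0.03 (SE 0.27) for GBP1, -0.19 (SE 0.25) for GBP3 and -0.96 (SE 0.91) for GBP2, and no fold is given for GBP4 and GBP5. Of 15449 genes, 0.123% were called. With IFN-β, where 17% of genes were called, the intervals were narrower: -0.08 for GBP1 (95% interval -0.32 to 0.15), 0.11 for GBP3 (-0.17 to 0.39), -0.21 for GBP4 (-0.60 to 0.18), 0.04 for GBP2 (-0.72 to 0.80) and 0.55 for GBP5 (-0.23 to 1.33). With either treatment edgeR gave no member an unadjusted p under 0.05, and DESeq2 called none. Treated GBP3 and GBP5 had both KO libraries above both controls, as did 28.2% of genes. The mean effect in the dependent lines less that in IFN-β-treated A549 was 1.27 for GBP2 (SE 0.36, adjusted p = 0.0551, edgeR), 0.62 for GBP5 (SE 0.34), 0.47 for GBP1 (SE 0.23) and -0.14 for GBP3 (SE 0.21). None of these differences was called, while 2.07% of genes were. Against vehicle-treated A549, 0 of the 3 comparable members were called (GBP2 2.21, SE 0.98, adjusted p = 0.304, edgeR), against 0.953% of genes. In edgeR's test GBP1 and GBP2 (treated) and GBP2 (vehicle) had an unadjusted p under 0.05, and DESeq2 called none. GBP2 was called without A549 GFP IFN-β sg1 (1.45), HCC366 GFP sg2 (1.84), HCC366 ADAR sg1 (1.33) or HCC366 ADAR sg2 (1.18), and GBP1 without HCC366 ADAR sg1 (0.48).

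IFN-β raised all 5 members in A549, with either target. GBP1 went from 3.55 and 2.78 CPM to 119.6 and 129.9 CPM in GFP cells, and from 3.16 and 2.84 to 129.5 and 106.8 CPM in ADAR KO cells. GBP3 reached 51.3 and 52.8 CPM in GFP and 58.5 and 54.2 CPM in ADAR KO cells. GBP4 reached 29.6 and 27.1 CPM in GFP and 28.6 and 20.7 CPM in ADAR KO cells, from 0 reads. GBP2 and GBP5 also rose but stayed low. GBP2 reached 3.37 and 4.71 CPM in GFP and 4.30 and 4.10 CPM in ADAR KO cells. GBP5 reached 2.62 and 3.28 CPM in GFP and 3.46 and 5.09 CPM in ADAR KO cells. No treated library overlapped a vehicle library for any member. For single genes at large that was so in 21.7% (higher with IFN-β, GFP cells) and 33.3% (ADAR KO cells). GBP2, GBP4 and GBP5 passed the filter on low counts only through IFN-β libraries, so for them this is no test.

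In GFP cells the log2 fold changes were 5.35 (SE 0.17) for GBP1, 3.66 (SE 0.18) for GBP3 and 3.17 (SE 0.53) for GBP2. GBP4 rose at least 212.6-fold and GBP5 at least 22.8-fold, against 3 reads over the 2 vehicle libraries. In ADAR KO cells the log2 fold changes were 5.30 (SE 0.18), 3.96 (SE 0.19) and 4.17 (SE 0.63). The last rests on the 4 GBP2 reads of vehicle ADAR sg1, and was 3.08 without ADAR sg2 and, against 0 reads and so no measure of size, 8.73 without ADAR sg1 of the vehicle libraries. There GBP4 rose at least 140.7-fold, and GBP5 had a ratio of 41.1 (exact 95% interval 11.2 to 343.2, counting error only) from 2 vehicle reads. GBP1 and GBP3 were called with either target, against 5.70% and 24.5% of 15449 genes, and in every alternative tried. So were GBP2, GBP4 and GBP5, but only their IFN-β libraries took them past the filter on low counts, so their calls are no test. The response did not differ past the threshold between ADAR KO and GFP cells for the members with enough reads: the interaction was -0.05 for GBP1 (95% interval -0.65 to 0.56), 0.30 for GBP3 (-0.28 to 0.88) and 1.00 for GBP2 (-1.01 to 3.005). It was called for 5.05% of all genes.

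The induced pattern in A549 was set against the resting pattern of the dependent lines, a comparison added after the data had been seen, in the fit of all 20 libraries. Resting GBP3 in HCC366, NCI-H1650 and NCI-H196 differed from IFN-β-treated A549 GFP cells by -0.01 (95% interval -0.39 to 0.37), -0.21 (-0.57 to 0.16) and 0.24 (-0.18 to 0.66), none called. GBP1 was lower in HCC366 (-1.18, SE 0.21) and was not called in NCI-H1650 (-0.36, SE 0.19) or NCI-H196 (-0.30, SE 0.22). GBP2 was higher than in treated A549 in NCI-H1650 (1.92, SE 0.30) and NCI-H196 (3.15, SE 0.31), and in HCC366 it passed narrowly (0.91, SE 0.37, adjusted p = 0.0415, edgeR). GBP5 was higher in NCI-H1650 (1.08, SE 0.30) and NCI-H196 (3.19, SE 0.28), and in HCC366 the difference was 0.56 (SE 0.38, adjusted p = 0.227, edgeR). GBP4 was higher in NCI-H1650 (1.69, SE 0.21), lower in NCI-H196 (-0.90, SE 0.27) and not called in HCC366 (-0.52, SE 0.25). The members called numbered 2, 3 and 3 of 5, against backgrounds of 51.4%, 54.3% and 58.6%. The call of GBP2 in HCC366 was lost with DESeq2 (0.99), without a filter (0.80), with a replicate block (0.30), without A549 GFP IFN-β sg1 (0.72) or NCI-H196 ADAR sg2 (0.91), and without HCC366 GFP sg2 its value turned to -0.80. The GBP4 difference in NCI-H196 turned to 0.60 without NCI-H196 GFP sg1. GBP4 in HCC366 was called without HCC366 GFP sg2 (-1.27), ADAR sg1 (-0.50) or ADAR sg2 (-0.49), and GBP1 in NCI-H1650 without HCC366 GFP sg1 (-0.39), ADAR sg1 (-0.36) or ADAR sg2 (-0.39). These cells were cultured apart, so the line and the treatment cannot be told apart here.

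**Figure D3:**
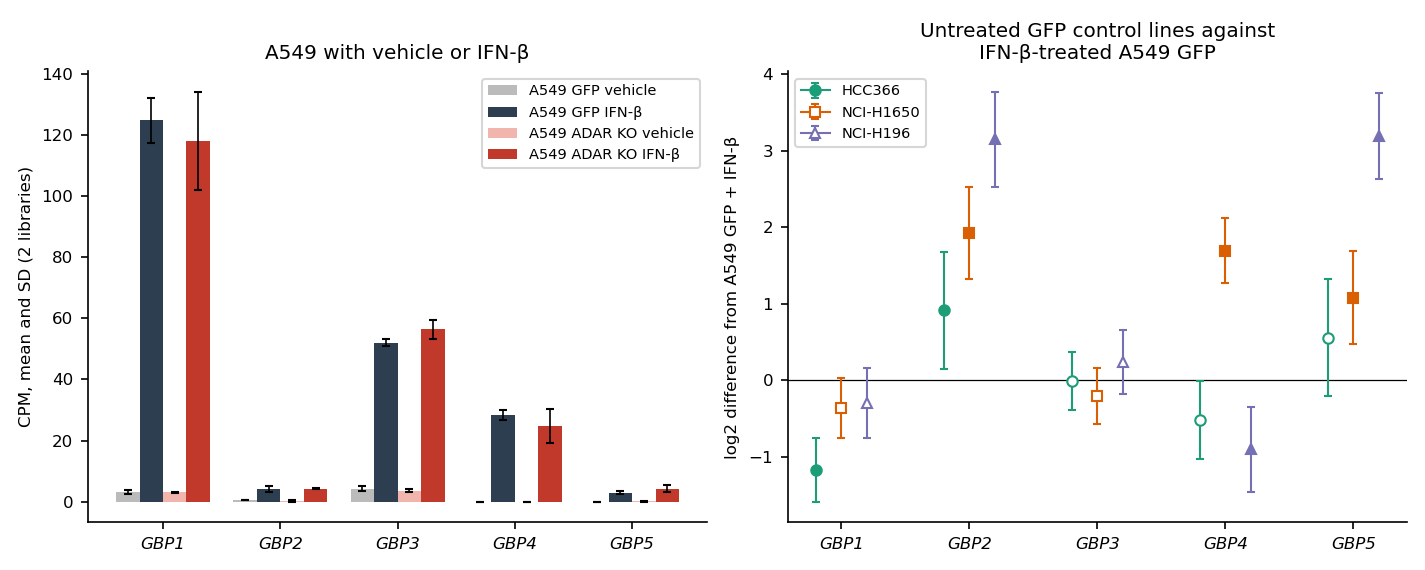
Left, mean CPM and SD (2 libraries) of each member in A549 with vehicle or IFN-β for GFP and ADAR KO cells. GBP1 reaches the highest CPM, 124.8 ± 7.29 in GFP cells, while GBP2 and GBP5 stay under 6 CPM. CPM is not corrected for gene length. The fold in GFP cells was larger for GBP4 (at least 212.6-fold) than for GBP1 (log2 fold change 5.35). Right, log2 difference of each untreated GFP control line from IFN-β-treated A549 GFP cells with 95% intervals (filled, called), with GBP3 near 0 in all 3 lines and GBP2 above 0 in all 3.

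Other genes of the pathway were taken from fixed lists. Among the regulators, IRF1, the transcription factor most closely tied to GBP induction, rose with ADAR KO in the 3 dependent lines together (0.88, SE 0.14, adjusted p = 0.000944, edgeR), as GBP2 and GBP5 did. It also rose in IFN-β-treated A549 cells (0.98, SE 0.12), where no GBP was called. STAT2 and IRF9 were not called across the dependent lines (0.28 and 0.44). IRF9 had few reads, so its missing call says little: 20 in GFP and 10 in ADAR KO libraries of HCC366, 11 and 25 in NCI-H1650, and 55 and 79 in NCI-H196. Line by line, STAT2 was called in NCI-H196 (0.56) and narrowly in NCI-H1650 (0.32, adjusted p = 0.0498, edgeR) and not in HCC366 (0.17). IRF1 was called in the same lines (0.996 and 0.84) and not in HCC366 (0.95, adjusted p = 0.210, edgeR). STAT2 was also called in IFN-β-treated A549 cells (0.31). The part of these regulators in the GBP changes was not tested. IFNB1, encoding IFN-β, rose by 2.92 (SE 0.31) across these lines. In NCI-H1650 it averaged 1.60 ± 0.41 CPM in GFP and 11.7 ± 1.15 CPM in ADAR KO libraries (SD, n = 2). IFNG, encoding interferon-γ, had 0 reads in 19 libraries and 2 reads in A549 ADAR sg2 with IFN-β. IFN-β raised IRF1, STAT2 and IRF9 in A549 GFP cells by 2.91, 3.51 and 2.98 log2 units.

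Across the dependent lines, the lists are read against 5.30% of all genes called in either direction. Of 13 tested NF-κB targets 11 rose (median 1.82, against -0.01 for all genes), led by LTB (3.22) and CXCL3 (2.36). All 4 tested interferon ligands rose. A ligand scarce in controls could pass the filter on low counts through its ADAR KO libraries, so this count is no test of the list. IFNB1 had 2 GFP against 9 ADAR KO reads in HCC366, 14 against 118 in NCI-H1650 and 2 against 24 in NCI-H196. Of 20 type I interferon (ISRE) targets 3 rose, among them ISG15 (1.07) and IFIT2 (0.71), with a median of 0.31. Of 16 interferon-γ-type targets 1 rose, ICAM1 (0.98), a share near that of all genes, with a median of 0.20. Of 20 interferon receptor and signalling genes 4 rose, led by IRF7 (1.28) and SOCS1 (1.17). None fell in these lists. Of 19 GBP partners and effectors 3 rose, including the immunity-related GTPase gene IRGM (1.84) and the autophagy receptor gene SQSTM1 (1.15), and none of 10 other dynamin-like GTPases was called (median -0.41). In NCI-H196 18 of 20 ISRE targets rose (median 1.01), led by IFIH1 (1.71) and OAS1 (1.497), in the fit that rests on GFP sg1, against 17.8% of all genes called. In NCI-H1650 5 of 19 rose (median 0.22), led by RSAD2 (0.77) and ISG15 (0.47), against 8.60%. In HCC366 0 of 15 were called (median 0.59), where only 1.25% of all genes were. Of these 15, edgeR gave 5 an unadjusted p under 0.05, and DESeq2 called 2.

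In A549 with IFN-β, ADAR KO raised all 12 tested NF-κB targets (median 1.75), led by CXCL8 (4.69) and CCL20 (3.33), and all 4 tested interferon ligands. Among the A549 libraries IFNB1 had reads only in ADAR KO with IFN-β (17 and 62 reads). It passed the filter on low counts only through the group where it is high, so the count of ligands is no test of the list. The background for this comparison was 17% of genes called in either direction. Only 2 of 20 ISRE targets rose, a share below it, DDX58 (0.68) and RSAD2 (0.35), with a median of -0.04. Among the interferon-γ-type targets CD274 (1.75) and ICAM1 (2.27) rose and PSMB9 fell by 0.40 on the log2 scale. Among the partners of the GBPs IRGQ (0.61) and PIM1 (0.51) rose, and 3 fell, including APOL1 (-0.50) and APOL2 (-0.37). By contrast IFN-β itself, with 5.70% of all genes called in A549 GFP cells, raised all 20 ISRE targets there, led by OAS2 and XAF1. It raised 7 of 12 interferon-γ-type targets, led by NLRC5 (3.82) and PSMB9 (3.78). It raised 9 of 16 partners and effectors, among them APOL3 and CASP1, the gene of the inflammatory caspase-1, and lowered IRGQ (-0.43). No other dynamin-like GTPase rose, and ATL3 fell by 0.59 on the log2 scale.

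**Figure D4:**
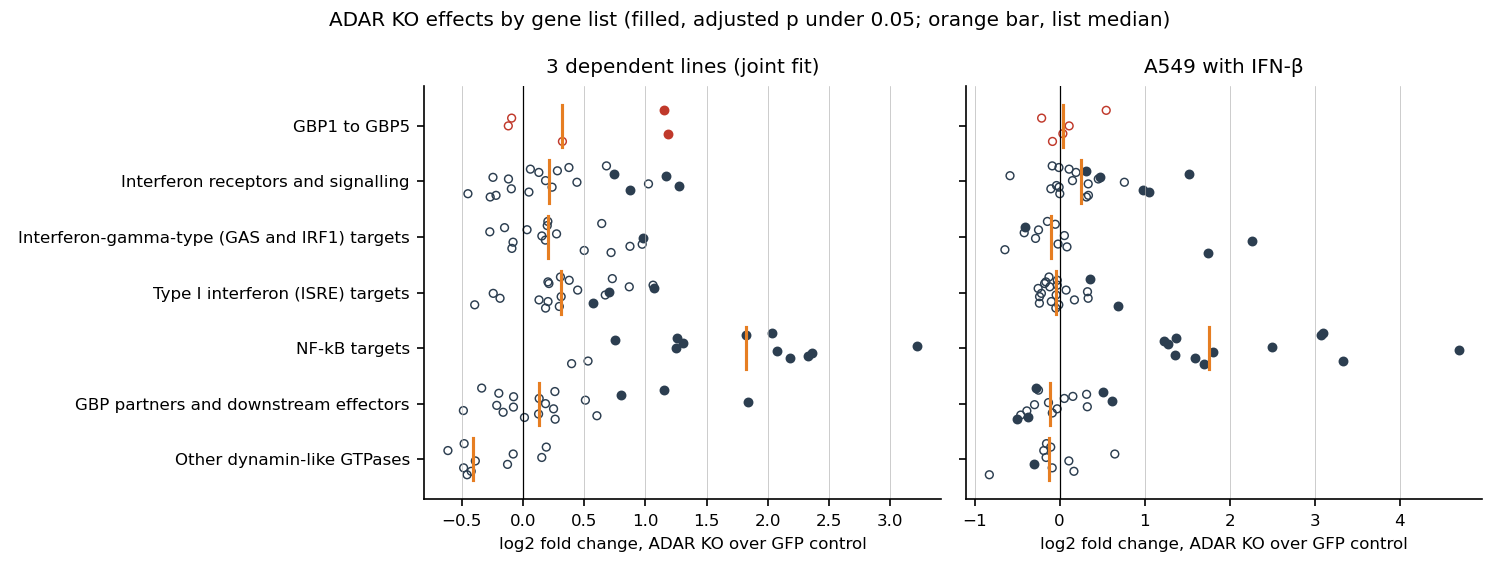
Log2 fold change of ADAR KO over GFP control for GBP1 to GBP5 and the genes of 6 lists, in the joint fit of the 3 dependent lines (left) and in A549 with IFN-β (right), with filled symbols past the threshold and an orange bar at each median. In the dependent lines 2 members and 11 of 13 NF-κB targets are filled, and in A549 with IFN-β no member and all 12 NF-κB targets are.

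Across all 20 libraries, the levels of the members ran in parallel to differing degrees. Pearson's r of log2 CPM, given here as a description since the libraries share cell lines, was 0.970 between GBP1 and GBP3, 0.954 between GBP2 and GBP5, 0.944 between GBP1 and GBP4 and 0.906 between GBP3 and GBP4. It was 0.889 between GBP3 and GBP5, 0.866 between GBP1 and GBP5, 0.831 between GBP1 and GBP2, 0.830 between GBP2 and GBP3, 0.788 between GBP4 and GBP5 and 0.777 between GBP2 and GBP4. Of 19523 genes, those most like GBP1 were IFIT3 (0.976), OAS2 (0.976) and IFI6 (0.973). Most like GBP3 were BST2 (0.964), IFI6 (0.961) and IFI44 (0.960), and most like GBP4 were SAMD9 (0.954), IFIT3 (0.948) and IFI44 (0.947). All of these are interferon-stimulated genes. Among those most like GBP2 were HCP5 (0.968) and CSRNP2 (0.951), and among those most like GBP5 were RUBCN (0.980) and HCP5 (0.977).

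With the 20 libraries scaled together, each member's conditions could be ordered by mean CPM. For GBP5 the order from NCI-H1650 GFP upward was 7.68, then HCC366 ADAR KO 10.4, NCI-H1650 ADAR KO 17.9, NCI-H196 GFP 37.2 and NCI-H196 ADAR KO 78.9, and no neighbours in this stretch overlapped. Below it HCC366 GFP (4.85) overlapped A549 with IFN-β of either target (3.58 in GFP and 5.04 in ADAR KO). GBP2 ran from A549 with IFN-β (4.90 and 4.95) through HCC366 GFP (7.70), overlapping each other, to NCI-H1650 GFP (18.9), HCC366 ADAR KO (30.05), NCI-H1650 ADAR KO (43.7), NCI-H196 GFP (57.7) and NCI-H196 ADAR KO (80.0), where only NCI-H1650 ADAR KO and NCI-H196 GFP overlapped. For GBP4 both NCI-H1650 conditions stood on top (110.8 in GFP and 137.2 in ADAR KO), above the overlapping run of NCI-H196, treated A549 and HCC366 GFP (21.8 to 34.7), with HCC366 ADAR KO (7.60) below them. For GBP1 the 5 highest conditions, from NCI-H196 GFP (128.4) to NCI-H196 ADAR KO (165.6) and including both IFN-β-treated A549 conditions, each overlapped the next. For GBP3 the treated A549 conditions (63.1 and 66.4) likewise stood within an overlapping run with HCC366 GFP (61.2) and NCI-H1650 GFP (54.7).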

How the data were processed

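RNA-seq of 20 libraries was analysed. Per the labels, libraries were directional and made after removal of ribosomal RNA. According to the submitters' processing notes, STAR, HTSeq, DESeq2 and the hg19 build were used. The strand setting and annotation release are not given in the sources used here. The authors deposited raw counts for 58233 gene identifiers, used as they stand, without the 5 HTSeq summary lines of each file. GENCODE, in its GRCh37 mapping, gave positions, exons and lengths. Totals per library ran from 62679 to 19520189 reads, and Poisson intervals and floors include counting error alone.

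Groups came from the sample labels, with the 2 sgRNAs of a condition as replicates. Fits used edgeR 4.0.16 with limma 3.58.1 under R 4.3.3, with TMM scaling, filterByExpr by condition, quasi-likelihood F-test and Benjamini-Hochberg adjustment over all genes tested, with a threshold of 0.05. Fold changes used a prior count of 0.125, correlations a prior count of 2. Fits were made per line, over the 8 A549 libraries, the 8 resting controls, the 12 libraries of the dependent lines (line as covariate) and all 20 libraries (differences between lines). HCC366, NCI-H1650 and NCI-H196 levels in the text are scaled within each line except where stated. DESeq2 1.42.0, other size factors, no filter, a replicate block and leaving out each library were alternatives. The scripts were tested on simulated data. Folds against groups with 0 reads are bounds against 3 reads per group.

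The members and lists were chosen with earlier results of these data known. The text names GBP1 to GBP5 throughout, ADAR in its check, STAT2, IRF1, IRF9, IFNB1 and IFNG, up to 2 largest called rises and falls per list and comparison described, and the 3 genes most like each member, apart from a few that are not reported here. Protein sequences were not used here, and promoters of GBP2 and GBP5 were not in the table used.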

Additional observations from a re-analysis of the deposited data

Results flagged for a closer look

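The effect of ADAR KO on GBP4 differed between dependent lines by the test of the difference itself, with -1.998 log2 units (adjusted p = 0.0132, edgeR) for HCC366 less NCI-H1650 and -2.31 (adjusted p = 0.00854, edgeR) for HCC366 less NCI-H196. GBP3 differed between HCC366 and NCI-H196 by -1.20 (adjusted p = 0.0314, edgeR). In HCC366 both genes were lower in both ADAR KO libraries than in both controls. The HCC366 libraries hold 1116439 to 3440707 gene reads, the GBP4 counts behind the values are 20, 110, 11 and 11 reads, and 85.6% of alignments in HCC366 ADAR sg2 were not unique. The part of these in the differences was not tested. Conditions with 2 libraries were too small for a search for outlying samples.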

How the results depend on the processing

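Over the fits other than those that left out a library, 502 of 550 member results stayed on the same side of the threshold with the same direction, 32 lost their call, 8 gained one and 8 reversed. Over the fits that left out a library, 1177 of 1288 stayed, 38 lost their call, 20 gained one and 53 reversed. The rises with IFN-β in A549, the differences of the 3 lines from A549, and the rises of GBP2 and GBP5 across the dependent lines kept their calls in every alternative. For the rises with IFN-β and the differences from A549, the calls of GBP2, GBP4 and GBP5 are no test, as stated above. Where a result changed, the cause was not tested. The HCC366 libraries hold 1116439 to 3440707 gene reads and NCI-H196 GFP sg2 holds 62679, and the HCC366 ADAR libraries differ by 17.5 times counting noise (chi-square per degree of freedom).

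The number of members called for ADAR KO in HCC366 was 2 without a filter and 3 in the fit of all 20 libraries. In NCI-H196 it was 0 with DESeq2, where GBP4 turned to -0.026, and 1 in the fit of all 20 libraries. In that fit GBP2 in IFN-β-treated A549 turned to -0.017. DESeq2 called 1 member between HCC366 and NCI-H1650 controls and 2 between NCI-H1650 and NCI-H196, where GBP1 turned to 0.089 with RLE size factors. For the differences of KO effects, DESeq2 called 0 for HCC366 against NCI-H1650 and 0 against NCI-H196, where no filter gave 1. Against NCI-H196, NCI-H1650 GBP5 turned to 0.0090 without a filter, and the GBP4 difference from IFN-β-treated A549 turned to 0.067 with RLE size factors. Of HCC366 controls against treated A549, 1 member was called with DESeq2 and 1 without a filter, and GBP3 turned to 0.18 with RLE size factors and 0.17 with DESeq2, scalings that moved the median of all genes there by more than 0.1. 

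When a replicate block by sgRNA number was added, 1 member was called in HCC366, 1 in NCI-H196, and 0 for HCC366 against NCI-H196, and the GBP1 difference between NCI-H1650 and NCI-H196 turned to 0.0022. GBP1 in NCI-H1650 also lost its call. Same-numbered libraries had correlations of their deviations from -0.0518 to 0.0494. Between targets the number names different sgRNAs. In A549 it names the same sgRNA with vehicle and with IFN-β, where the correlations were -0.0507 (GFP) and -0.000205 (ADAR KO). The main fits did not use this pairing, and the IFN-β calls of the members held with a block by sgRNA identity.

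Leaving out a library, the members called ranged from 0 to 3 for ADAR KO in HCC366, 0 to 5 in NCI-H196, 1 to 4 for HCC366 against NCI-H196 controls, 0 to 4 for NCI-H1650 against NCI-H196 controls, 0 to 2 for the differences of HCC366 from NCI-H1650, from NCI-H196 and of the dependent lines from treated A549, and 1 to 3 for HCC366 against treated A549. KO effects ranged from -0.082 to 0.94 (GBP1, HCC366), -0.19 to 0.047 (GBP3, NCI-H1650), and in NCI-H196 from -0.080 to 0.97 (GBP2), -0.18 to 0.64 (GBP3) and -1.15 to 0.72 (GBP4). In A549 they ranged from -0.25 to 0.10 (GBP1, vehicle), -5.52 to 0.13 (GBP2, vehicle), -0.22 to 0.052 (GBP1, IFN-β), -0.17 to 0.32 (GBP2, IFN-β) and -0.45 to 0.016 (GBP4, IFN-β), and the interaction from -0.19 to 0.16 (GBP1) and -0.093 to 5.56 (GBP2). Across the dependent lines they ranged from -0.31 to 0.057 (GBP3) and -0.38 to 0.22 (GBP4). Control differences ranged from -0.015 to 0.39 (GBP3, HCC366 and NCI-H1650) and -1.12 to 0.75 (GBP4, HCC366 and NCI-H196). Differences of KO effects ranged from -0.53 to 0.52 (GBP1) and -0.49 to 0.33 (GBP5) for HCC366 and NCI-H1650, -0.59 to 0.46 (GBP1) and -0.52 to 0.29 (GBP5) for HCC366 and NCI-H196, and -0.13 to 0.075 (GBP1), -0.41 to 1.20 (GBP4) and -0.23 to 0.29 (GBP5) for NCI-H1650 and NCI-H196. Against A549 they ranged from -0.055 to 0.27 (GBP3, vehicle) and -0.50 to 0.25 (GBP4, IFN-β). Against treated A549, HCC366 controls ranged from -0.80 to 1.34 (GBP2), -0.26 to 0.15 (GBP3) and -0.026 to 0.78 (GBP5), and NCI-H196 from -0.99 to 0.60 (GBP4).

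Over all genes, calls for ADAR KO in HCC366 ranged from 121 to 3701 between alternatives around 139 and from 7 to 6084 when a library was left out. The same ranges were 10 to 2558 and 34 to 3161 around 2513 in NCI-H196, 159 to 1174 and 561 to 792 around 1250 in NCI-H1650, and 362 to 3149 and 308 to 1892 around 876 across the dependent lines.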
